A study of Arabidopsis thaliana with 6 samples.

Results

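The late branch of anthocyanin synthesis was followed in roots of Arabidopsis thaliana through 10 genes, picked by locus from the 32627 loci on a one-colour NimbleGen expression array. They are DFR (AT5G42800), LDOX (AT4G22880), UGT79B1 (AT5G54060), UGT75C1 (AT4G14090), TT19 (AT5G17220) and 5MAT (AT3G29590), which make, decorate or move anthocyanins, and the regulators PAP1 (AT1G56650), PAP2 (AT1G66390), MYBL2 (AT1G71030) and TT8 (AT4G09820). Each of the 10 had 1 transcript model on the array, and all were in the table of values. Plants were cultured for 12 days on half-strength Murashige and Skoog medium, and the shoots of both groups were lit with white light (75 µmol m-2 s-1). Roots were kept dark in the treated group (3 arrays) and lit in the control group (3 arrays). The labels name no mutation, transgene or ecotype, and give each array as total root RNA from its own in vitro plate.

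Anthocyanins share their first steps with flavonols. Chalcone synthase, chalcone isomerase and flavanone 3-hydroxylase make a dihydroflavonol, which flavonol synthase turns into flavonols and dihydroflavonol 4-reductase (DFR) commits to the anthocyanin branch. In Arabidopsis shoots the late genes are switched on by a complex of a MYB protein (PAP1, PAP2 and their relatives), a bHLH protein (TT8, GL3 or EGL3) and the WD40 protein TTG1, and this is well known to respond to light and sugar. MYB11, MYB12 and MYB111 switch on the early genes without a bHLH partner. MYBL2 is a small MYB protein that represses the late genes.

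Values are log2 expression levels as deposited, on a scale that ran from 4.70 to 15.92 on every array with a first quartile of 7.61 and a median of 11.84. Probes differ in brightness, so a level places a probe on this scale and does not give the amount of one transcript relative to another. Differences are dark minus light and were tested with limma over all 37118 transcript models, with the Benjamini-Hochberg adjusted p. In that fit 903 models were higher and 1196 lower in dark-grown roots at adjusted p under 0.05, or 2.43% and 3.22%. The mean level of 10 root marker genes lay high on the scale, although WOX5 was at 9.97. It was 13.67 to 13.82 on the dark arrays and 13.57 to 13.58 on the light arrays, with all dark arrays above the light ones. None of the 10 passed, and 4 had all dark arrays above all light arrays, against 16.4% of all models. GL2 (0.52) and SCR (0.34) were called higher in dark with a signal-dependent robust variance prior (adjusted p = 0.0248 and 0.0161 in limma) and in fits without dim models. Of 12 markers of shoot tissue, which makes anthocyanin and which a root harvest could carry over, 11 lay in the 3 dimmest of 10 equal signal classes, and their mean level was 7.28 to 7.42 in dark and 7.27 to 7.42 in light. Of the shoot markers, the meristem gene STM was higher in dark by 0.84 (adjusted p = 0.0202 in limma) and KNAT1 lower by 1.13 on the log2 scale (adjusted p = 0.0147 in limma), and these calls were lost in 5 and 3 of the 6 fits that left out 1 array (adjusted p = 0.0572 to 0.0894 and 0.0517 to 0.0702). The part of shoot tissue in the results below was not tested. Fewer cells of a type and less RNA per cell cannot be told apart in whole roots.

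None of the 10 genes passed limma's test, where 5.65% of all models did in either direction. At an unadjusted p under 0.05 there were 2, TT19 lower and MYBL2 higher in dark-grown roots, against 21.2% of all models. Their differences ran from -0.86 to 0.47, with a median of 0.05 beside 0.02 over all models. With the exception of MYBL2, the genes lay in the dimmest 4 of the 10 signal classes. The plot of levels by array shows both groups of each gene side by side.

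**Figure D1:**
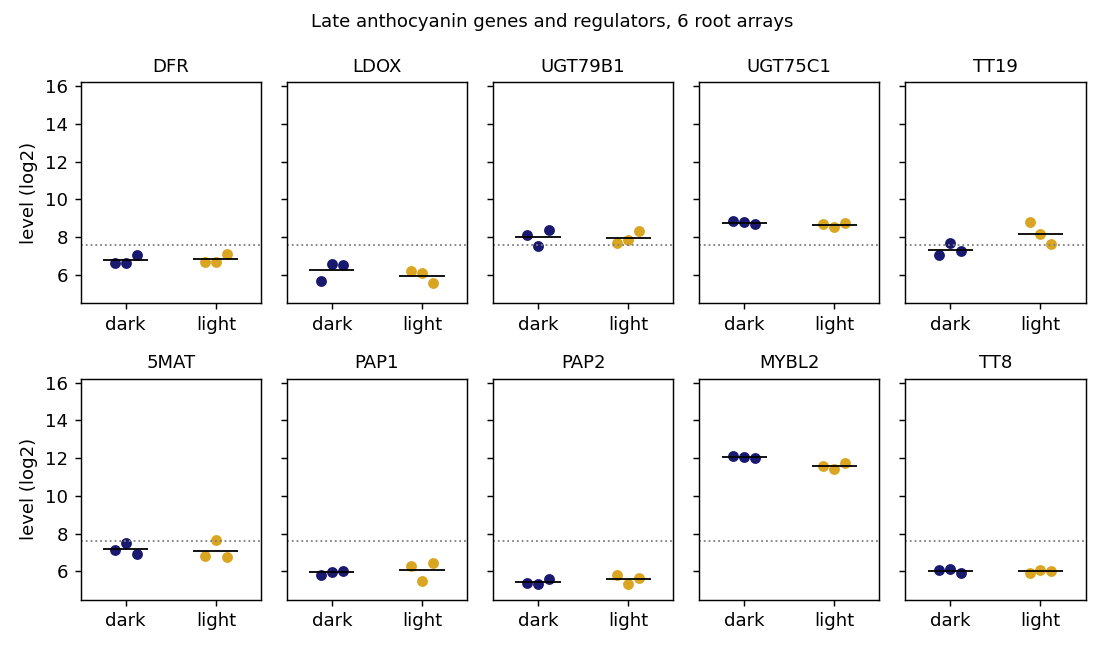
Level (log2) of each of the 10 genes on the 3 dark and 3 light arrays, with replicates 1 to 3 from left to right in each group. Points are arrays, the bar is the group mean, and the dotted line is the first quartile of the scale (7.61). MYBL2 sits near the middle of the scale with all dark arrays above all light arrays, and the other 9 lie between 5.31 and 8.84.

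DFR, which reduces dihydroflavonols to leucoanthocyanidins, had levels of 6.61, 6.64 and 7.06 in dark-grown roots, against 6.69, 6.68 and 7.12 in light-grown roots. The groups overlapped, and the third replicate was the highest in each. The difference was -0.06 (SE 0.18, 95% interval -0.51 to 0.39, adjusted p = 0.903 in limma). LDOX, which makes the coloured anthocyanidin from the product of DFR, had 5.68, 6.60 and 6.51 in dark and 6.21, 6.08 and 5.59 in light. Its spread of 0.92 among the dark arrays exceeded the difference of 0.30 between groups (SE 0.30, 95% interval -0.43 to 1.04, adjusted p = 0.650 in limma).

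UGT79B1, a glycosyltransferase that adds xylose to the sugar at position 3 of anthocyanins, had levels of 8.10, 7.53 and 8.40 in dark-grown roots and 7.70, 7.84 and 8.35 in light-grown roots. As for DFR, replicate 3 was the highest in both groups, and the groups overlapped. The difference was 0.05 (95% interval -0.63 to 0.73). UGT75C1, the anthocyanin 5-O-glucosyltransferase, was measured with the narrowest spread of the 6 structural genes, at 8.84, 8.78 and 8.68 in dark and 8.68, 8.55 and 8.74 in light. The groups overlapped, and the interval of its difference of 0.11 ran from -0.11 to 0.33, so a 2-fold change in either direction (1 on the log2 scale) lay outside it. 5MAT, which adds a malonyl group to the glucose that UGT75C1 attaches, had 7.12, 7.50 and 6.92 in dark and 6.79, 7.64 and 6.75 in light, with the highest value in replicate 2 of each group. Its difference was 0.12 (95% interval -0.59 to 0.83).

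TT19, a glutathione S-transferase needed to bring anthocyanins to the vacuole, differed most. It had levels of 7.03, 7.68 and 7.28 in dark-grown roots, against 8.80, 8.15 and 7.63 in light-grown roots. The groups overlapped, since light replicate 3 lay below dark replicate 2, although the other 2 light arrays were above all dark arrays. The mean was 7.33 ± 0.33 in dark and 8.19 ± 0.59 in light (SD, n = 3 each), a difference of -0.86 (SE 0.33, 95% interval -1.68 to -0.05) with an adjusted p of 0.213 in limma. Without light replicate 1 the difference was -0.56 and without light replicate 3 it was -1.15, so the size rested on which light array was included. Of the models in the same signal class, 93.6% differed by less than TT19.

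The MYB activators PAP1 and PAP2 were among the dimmest probes. PAP1 had 5.80, 5.99 and 6.03 in dark-grown roots and 6.28, 5.51 and 6.43 in light-grown roots. Its light arrays lay on both sides of the dark ones. PAP2, a close paralog of PAP1, had 5.40, 5.31 and 5.57 in dark and 5.82, 5.33 and 5.64 in light, with overlapping groups, and 1.57% of all models had a mean at or below its own. The differences were -0.13 for PAP1 (95% interval -0.76 to 0.49) and -0.17 for PAP2 (95% interval -0.54 to 0.20). TT8, the bHLH partner, had 6.08, 6.14 and 5.91 in dark and 5.91, 6.07 and 6.01 in light, the groups overlapping within 0.23. Its difference was 0.05 (95% interval -0.18 to 0.28, adjusted p = 0.847 in limma).

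MYBL2, the repressor, was the one gene of the 10 above signal class 4 and the one whose groups did not overlap. It had levels of 12.11, 12.07 and 11.98 in dark-grown roots, against 11.57, 11.44 and 11.75 in light-grown roots. All 3 dark arrays were above all 3 light arrays, as in 16.4% of all models, and groups that did not overlap in either direction made up 28.4%. The mean was 12.05 ± 0.07 in dark and 11.59 ± 0.16 in light (SD, n = 3 each), a difference of 0.47 or 1.38-fold (SE 0.10, 95% interval 0.21 to 0.72). The adjusted p was 0.0631 in limma, so MYBL2 did not pass. It passed in 3 other fits, with a signal-dependent robust variance prior (adjusted p = 0.0340), with array weights (0.0324) and after the dimmest 25% of models were left out (0.0334), and with any 1 array left out its adjusted p was 0.0517 to 0.204. In its signal class 13.3% of models passed and 74.0% differed by less.

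The share of models that passed varied along the scale and was low at both ends, with 0.593% in the brightest class. Such a share is therefore no measure of what could be seen, and its cause was not tested. In the dimmest 3 signal classes, which held 8 of the 10 genes, 1.75% of models passed in either direction. PAP1, PAP2, TT8 and LDOX were in the dimmest class, where 0.539% passed and the median SD within groups was 0.293. DFR was in class 2, where 0.916% passed, and UGT79B1, TT19 and 5MAT in class 3, where 3.80% did. UGT75C1 was in class 4, where 11.4% passed, and MYBL2 in class 5. A set of 15 seed storage and floral genes, whose products are textbook features of seeds and flowers and not of roots, had levels between 5.83 and 8.96 with a median of 7.04 over the 6 arrays. The 9 genes other than MYBL2 had 5.51 to 8.71 with a median of 6.80. In both sets limma called no gene, where 5.65% of all models passed. At an unadjusted p under 0.05 there was 1 gene in each set, against 21.2% of all models. These were the cruciferin CRU3 (0.51) of the 15 and TT19 (-0.86) of the 9. The table holds no detection calls, so whether any of the 9 transcripts was above background was not tested.

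**Figure D2:**
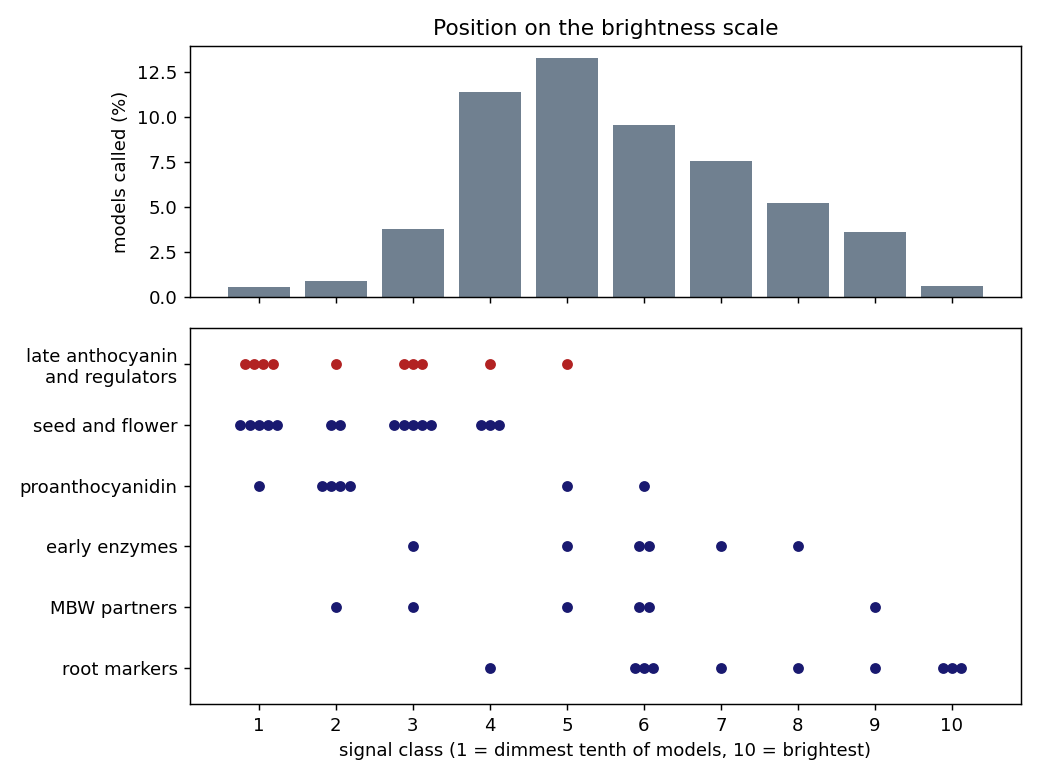
Above, the percent of transcript models called by limma in each of 10 equal classes of mean signal, from the dimmest (1) to the brightest (10). Below, the class of each gene in 6 sets, 1 point a gene: the late genes and regulators fall in classes 1 to 5, 8 of 10 in classes 1 to 3, the seed and flower genes in classes 1 to 4, and the root markers in classes 4 to 10. MBW partners are those of the MYB, bHLH and WD40 complex.

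Calls were fewer among models with a low level in dark. Of 9374 models with a dark mean below the first quartile, 135 (1.44%) passed as lower in dark and 22 (0.235%) as higher, against 3.82% and 3.18% of the 27744 models at or above it. The split uses the dark values themselves, which favours calls of lower in dark below the quartile. Of the 10 late genes and regulators, 7 were below it. F3H, the flavanone 3-hydroxylase just upstream of DFR, was also below it in dark. It had 6.29, 6.81 and 6.63 in dark-grown roots and 9.00, 9.40 and 8.47 in light-grown roots. All its light arrays lay well above its dark arrays, with a difference of -2.38 (SE 0.27, adjusted p = 0.00893 in limma). The dimmer of the 2 models of CHIL, a chalcone isomerase-like protein, had 5.59, 5.85 and 5.60 in dark and 7.73, 7.35 and 7.36 in light. It differed by -1.80, where the brighter model differed by -2.43 with light levels of 15.58 to 15.66, close to the top of the scale. The 2 ends of an array scale can compress differences, so a small difference of a dim probe is no measure of the change in its transcript.

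All 6 early enzymes were lower in dark-grown roots (6 of 6 past limma's test, median difference -5.00), beside 3.22% of all models lower. Chalcone synthase (CHS) had 9.46, 10.91 and 11.54 in dark, against 15.77, 15.72 and 15.88 in light. The difference was -5.15 (95% interval -6.43 to -3.87, adjusted p = 0.00637 in limma). Its light values lay at the top of the scale, and whether this compressed the difference was not tested. Chalcone isomerase (CHI, -5.59), flavonol synthase (FLS1, -5.46) and flavonoid 3'-hydroxylase (TT7, -4.85) differed by similar amounts, all with adjusted p = 0.000623 in limma. FLS1 and DFR act on the same substrates at the branch point: FLS1 had 8.89 to 9.37 in dark and 14.40 to 14.80 in light, while the DFR values above overlapped.

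Among the flavonol regulators, MYB12 was at 11.31, 11.92 and 11.91 in dark-grown roots, against 14.57, 14.26 and 14.25 in light-grown roots, a difference of -2.65 (adjusted p = 0.00257 in limma). MYB11 had 6.36, 6.82 and 6.66 in dark and 7.39, 7.83 and 7.78 in light. It differed by -1.05 (adjusted p = 0.0278 in limma) and lost its call in 5 of the 6 fits that left out 1 array (adjusted p = 0.0653 to 0.0951). MYB111 had 5.96, 6.12 and 6.19 in dark and 7.19, 6.59 and 6.94 in light, without overlap. Its difference of -0.82 missed the threshold (adjusted p = 0.0525 in limma). It passed without light replicate 2 (adjusted p = 0.0404) and with array weights (0.0387). MYB111 was in signal class 2, like DFR, and MYB11 in class 3, like TT19.

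**Figure D3:**
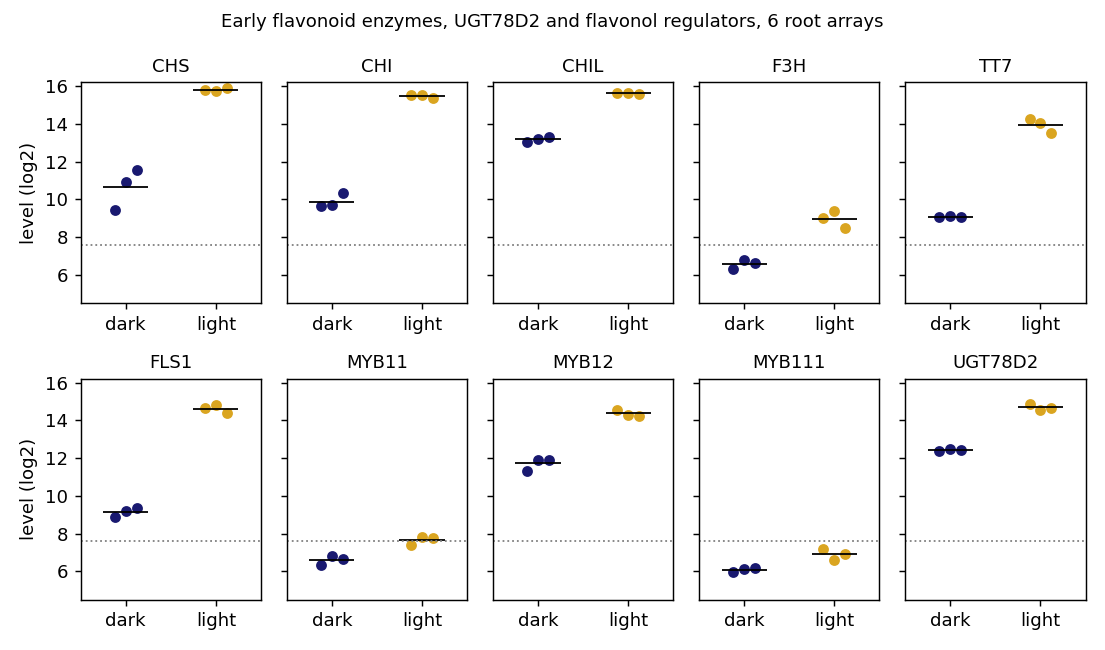
Level (log2) of the 6 early flavonoid enzymes, 3 flavonol regulators and the glucosyltransferase UGT78D2 on the 3 dark and 3 light arrays, drawn on the same axis as the late genes. Points are arrays, the bar is the group mean, and the dotted line is the first quartile of the scale (7.61). In each of the 10 panels the dark arrays lie below the light arrays.

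Of 6 other enzymes that decorate anthocyanins or supply a donor for this, 3 were lower in dark and 3 did not pass (median -1.12). Over all models 3.22% were lower. UGT78D2, which glucosylates position 3 of both flavonols and anthocyanidins, had 12.36, 12.46 and 12.42 in dark and 14.86, 14.56 and 14.64 in light (-2.27, adjusted p = 0.000801 in limma). UGT84A2, which makes the sinapoylglucose that donates the sinapoyl group, differed by -3.62 (adjusted p = 0.000886 in limma). The acyltransferase gene SCPL10, of the family that uses sinapoylglucose, had 7.69, 8.10 and 7.99 in dark and 10.71, 10.46 and 9.13 in light. Its difference of -2.17 passed narrowly (adjusted p = 0.0460 in limma), and it lost its call in 5 of the 6 fits without 1 array (adjusted p = 0.101 to 0.156), the exception being the fit without light replicate 3. The coumaroyltransferase genes 3AT1 and 3AT2, close paralogs whose probes may read each other's transcripts, and BGLU10, of a glycoside hydrolase family, were bright, at 12.88 to 14.31. None of these passed: 3AT1 differed by 0.01 (95% interval -0.23 to 0.25), 3AT2 by 0.06 (-0.31 to 0.44) and BGLU10 by -0.08 (-0.42 to 0.25).

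Among partners and paralogs of the MYB, bHLH and WD40 complex, 0 of 6 passed limma's test and 0 had an unadjusted p under 0.05 (median difference 0.06). Over all models these shares were 5.65% and 21.2%, so few calls would be looked for among 6 genes. The bHLH genes GL3 and EGL3 and the WD40 gene TTG1, which also act in root hair patterning, were bright. GL3 had 11.59, 11.46 and 11.84 in dark-grown roots and 11.46, 11.66 and 11.78 in light-grown roots, with overlapping groups and a 95% interval of -0.34 to 0.33. EGL3 differed by 0.28 (-0.07 to 0.62) and TTG1 by 0.01 (-0.18 to 0.21) in the brightest of its models, which had 14.37 to 14.54 in light. Dimmer models of TTG1 differed by 0.46 (-0.13 to 1.06), with overlapping groups, and by 0.23 (-0.05 to 0.52). In the latter all dark arrays lay above all light arrays, as in 16.4% of all models. Neither passed (adjusted p = 0.353 and 0.334 in limma). TTG2, a WRKY factor downstream of the complex, differed by 0.12. MYB114 lies directly between MYB113 and PAP2 on chromosome 1 in the TAIR10.1 gene table. MYB113 was in signal class 2 and MYB114 in class 3, where PAP2 was in class 1. MYB113 had 6.71, 6.52 and 6.84 in dark and 6.54, 6.15 and 6.63 in light, and MYB114 had 7.86, 7.21 and 7.55 in dark and 8.28, 6.98 and 8.09 in light. The groups overlapped for both genes, and MYB114, with an interval of -1.18 to 0.69, was the least precise of the 6. Probes of PAP1, PAP2, MYB113 and MYB114 may read each other's transcripts.

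Of 9 other repressors of anthocyanin genes, 1 was lower and none higher in dark, beside 3.22% and 2.43% of all models. CPC, a single-repeat MYB that specifies root hair cells and competes for the bHLH partners, had 12.86, 13.06 and 13.19 in dark and 13.78, 13.62 and 13.86 in light (-0.72, adjusted p = 0.0275 in limma), without overlap. It lost its call in each of the 6 fits without 1 array (adjusted p = 0.0569 to 0.105). MYB7 lay the other way, at 14.59, 14.77 and 14.69 in dark and 14.38, 14.40 and 14.26 in light. Like MYBL2 it had no overlap between groups and missed the threshold (0.34, adjusted p = 0.0880 in limma), and it passed in 3 other fits (adjusted p = 0.0206 to 0.0450). SPL9 differed by 0.20, MYB3 by 0.07 and LBD37 by 0.10, none past the test.

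Of 9 light signalling regulators upstream of flavonoid genes, 5 were lower and none higher in dark-grown roots (median -0.63). Over all models 3.22% were lower and 2.43% higher. The bZIP factor HY5, which binds promoters of early and late genes in Arabidopsis seedlings, had 14.02, 13.94 and 14.13 in dark and 15.09, 15.18 and 15.02 in light (-1.07, adjusted p = 0.00326 in limma). Its relative HYH differed by -2.11 and the SPA4 subunit of the COP1 ubiquitin ligase complex by -2.27. The B-box factors BBX24 (-0.85) and BBX22 (-0.63) also passed. They lost their calls in 4 and 2 of the 6 limma fits without 1 array (adjusted p = 0.0607 to 0.0836 and 0.0596 to 0.0688). A dimmer model of BBX24 differed by -0.19 with overlapping groups (adjusted p = 0.642 in limma). SPA1 (-0.42, adjusted p = 0.0504 in limma), BBX21 (0.24), PIF3 (-0.10) and COP1 (0.04) did not pass. The groups of SPA1 did not overlap, as in 28.4% of all models in either direction. SPA1 passed with the robust prior (adjusted p = 0.00639 in limma) and with array weights (0.0378). It also passed without the dimmest 25% of models (0.0244) and without those below the median (0.00987).

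**Figure D4:**
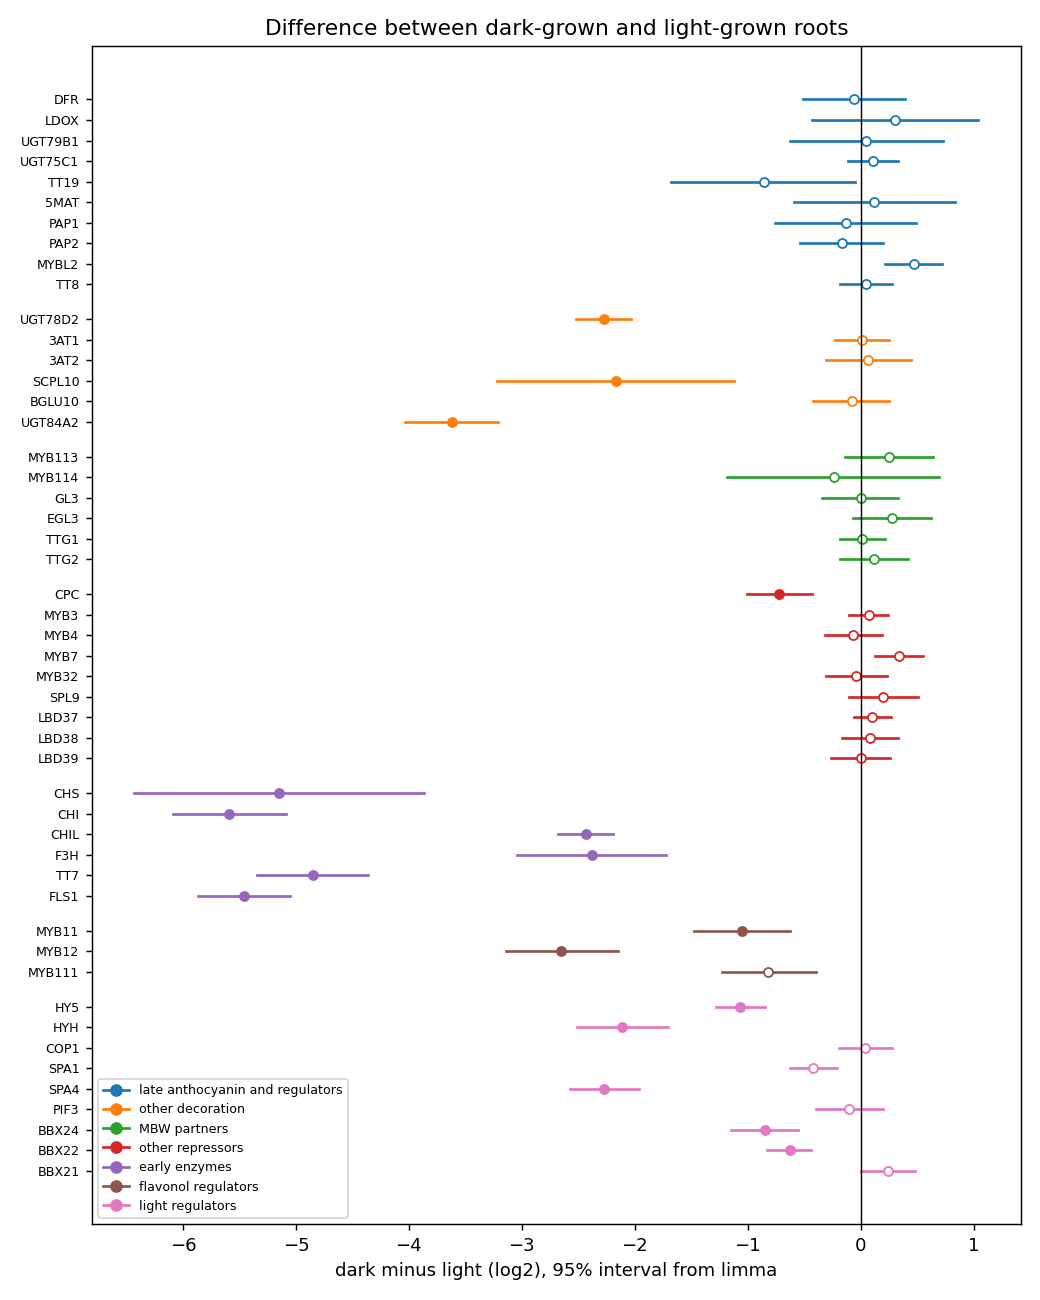
Dark minus light (log2) with its 95% interval from limma for the 10 late genes and regulators and for 6 other gene sets. Filled points passed at adjusted p under 0.05 and open points did not: no late gene or regulator is filled, and the points of all 6 early enzymes lie between -5.59 and -2.38.

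The proanthocyanidin branch, which uses the products of DFR and LDOX in the seed coat, gave 0 of 7 genes past limma's test (median -0.16). At an unadjusted p under 0.05 there were 2. Over all models 5.65% passed limma's test and 21.2% had an unadjusted p under 0.05. Anthocyanidin reductase BAN (-0.24), with 5.85 to 6.46 in dark and 6.11 to 6.72 in light, was dim, as were TT2, TT12, TT1 and TT16. The proton pump gene AHA10 was at 11.03, 11.39 and 11.24 in dark and 10.78, 10.77 and 10.64 in light (0.49, adjusted p = 0.0721 in limma). Its groups did not overlap, as in 28.4% of all models in either direction. The laccase gene TT10 lay the other way at -0.55 (adjusted p = 0.191 in limma).

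Among the 10 late genes and regulators, the interval of the difference lay within 1 log2 unit of 0 for 8, and did not for LDOX and TT19. Of all models 79.8% had such an interval, so this share was near that of the whole array. These intervals are not adjusted for the number of genes, and they bound the change in signal, which a dim probe may compress.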

How the data were processed

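RNA from 3 dark-grown and 3 light-grown root samples was copied to cDNA, labelled with Cy3 and hybridised to one-colour NimbleGen arrays, per the labels' protocols. The deposited values are log2 expression levels of 37118 transcript models. The sorted values matched to 0.01 across the 6 arrays, as they do after quantile normalization, and no further scaling was applied. The submitters' processing notes name limma. For background correction, probe summary and annotation release, nothing is stated in the sources used here. The number of arrays limits the precision.

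The fit of dark minus light used limma 3.58.1 (R 4.3.3, two-sided, no covariate) on all models, with Benjamini-Hochberg adjustment and a threshold of 0.05. Where a locus had several models, the one with the highest mean stood for it. The fit was tested on simulated data with normal noise and no compression at the ends of the scale. That test therefore cannot speak to the limits of dim or bright probes. The 10 members, the gene lists and the alternatives were chosen with earlier results of these data known. Named were the 10 members, each listed gene that passed, up to 4 more a list with the lowest p, and every early, flavonol regulator, complex and decoration gene. Symbols came from the lists and the TAIR10.1 gene table, which held all 10 members. Sequences were not used here. Python 3.11.15 with matplotlib 3.10.9 drew the figures.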

Additional observations from a re-analysis of the deposited data

How the results depend on the processing

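The fit without models below the median signal held none of the 10 late genes and regulators, and the fit without the dimmest 25% of models held 4 of them, UGT79B1, UGT75C1, TT19 and MYBL2. All 10 were tested in the other fits. With a signal-dependent robust variance prior, with array weights and without the dimmest 25%, MYBL2 was called higher in dark, which makes 1 call, and the remaining fits that held these genes called 0. None was called lower in a fit that held it. All 6 early enzymes stayed lower in every fit that kept them. With models below the median signal removed, 4 remained and all were called. Over all models, 1879 higher and 1852 lower were called with the robust prior, 1627 and 1588 without the dimmest 25%, 1596 higher with the median filter, and 290 and 668 with a replicate block. Without any 1 array there were 158 to 473 higher and 607 to 905 lower. In the other pathway lists 17 of 46 genes were lower and 0 higher, beside 3.22% and 2.43% of all models. MYB7 alone was called higher with the robust prior (1 gene) and with the median filter (1 gene), and MYB7 and AHA10 without the dimmest 25% (2 genes). Without any 1 array 12 to 15 of the 46 genes were lower.

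Without any 1 array the differences ran from -0.21 to 0.09 for DFR, 0.12 to 0.59 for LDOX, -0.15 to 0.29 for UGT79B1, 0.06 to 0.15 for UGT75C1, -1.15 to -0.56 for TT19, -0.04 to 0.41 for 5MAT, -0.42 to 0.05 for PAP1, -0.30 to -0.06 for PAP2, 0.39 to 0.55 for MYBL2 and 0.00 to 0.11 for TT8. DFR, UGT79B1, 5MAT and PAP1 changed sign in some of these fits, and TT8 fell to 0.00, none of them called. Deviations from the group means correlated at 0.01, 0.06 and 0.41 between dark and light arrays of the same replicate number. Between arrays of different numbers they correlated at -0.40 to 0.36. These values do not settle whether the replicate numbers pair the arrays. With the replicate block the adjusted p was 0.142 for MYBL2 and 0.270 for TT19, and the calls of SCPL10, CPC, BBX22, BBX24, KNAT1 and STM were lost. The cause of these changes was not tested. The late genes and regulators other than MYBL2 lay low on the scale, and CHS, CHI and CHIL lay near its top in light. Compression at either end was not tested.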
